A study of Mus musculus with 24 samples.

Results

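The genes examined here were 10 genes of the osteoclast, the multinucleated cell that dissolves bone, and of the RANKL axis that controls its formation. They were Tnfsf11, which encodes the cytokine RANKL, Tnfrsf11a, which encodes its receptor RANK, Tnfrsf11b, which encodes the decoy receptor osteoprotegerin (OPG), and Nfatc1, Dcstamp, Ocstamp, Ctsk, Acp5, Mmp9 and Calcr. They were chosen by name, and all 10 were found among the 55401 gene identifiers of the count table by their GENCODE M21 symbols. All 10 had enough counts to be tested in every comparison of intratibial tumors, and 9 in the subcutaneous tumors, where Calcr had 0 counts.

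RNA was sequenced from 24 tumors of male C57/BL6 mice that were 8 to 10 weeks old at purchase. TC2Ras cells, a prostate adenocarcinoma line derived from TRAMP-C2 with lentiviral activated H-Ras and mouse androgen receptor, were grown in the tibia (TC2Ras-Luc, which also carries firefly luciferase) or under the skin of the flank. Every mouse received a plasmid, either empty vector or a vector for the cytokine interleukin-27 (IL-27) fused to a short peptide, delivered into skeletal muscle by ultrasound (sonoporation). The mice with intratibial tumors were also gavaged daily with the tyrosine kinase inhibitor cabozantinib (cabo) or its vehicle polyvinylpyrrolidone (PVP) for the first 2 weeks. At day 14 the groups were control (empty vector and PVP; mice 3, 5 and 7), IL-27 (IL-27 vector and PVP; mice 4, 6 and 8), cabo (empty vector and cabo; mice 21, 25 and 27) and IL-27+cabo (mice 20, 22 and 24). The same 4 treatments were sequenced at the end of the study (EOS), when the remaining mice had reached the ethical endpoint, from 2 mice each, which were mice 9 and 13 for control, 10 and 12 for IL-27, 19 and 23 for cabo and 16 and 28 for IL-27+cabo. Cabo dosing had stopped by then, and the day of each EOS harvest was not given in the sources used here. The subcutaneous tumors were 2 with empty vector (control) and 2 with the IL-27 vector, harvested 1 week after implantation, for which the labels name no gavage. Nothing in the labels says that the 2 subcutaneous tumors of a group came from separate mice, so that p-values there measure only the spread between these tumors, which may be technical.

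RANKL is known to be made by osteoblast-lineage cells, osteocytes, stromal cells and activated T cells. It binds RANK on myeloid precursors, and OPG captures it before it can do so. RANK signaling, together with M-CSF and its receptor, leads through NF-kB and AP-1 to NFATc1, the transcription factor that turns on the genes for cell fusion (Dcstamp, Ocstamp) and for resorption (Acp5, Ctsk, Mmp9). Prostate cancers that spread to the skeleton disturb this balance between osteoblasts and osteoclasts, and RANKL is a drug target in bone metastasis. Ctsk and Mmp9 are not exclusive to osteoclasts, since fibroblasts make cathepsin K and neutrophils, macrophages and tumor cells make the gelatinase MMP9.

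All libraries held between 63729005 and 83782258 counts on genes, with a median of 70718686.5, and day 14 mouse 20 had the fewest counts and the fewest detected genes, 21269. Levels are given as CPM, counts scaled to library size, with TMM factors that correct each library for its composition, and as CPM per kilobase of exon where genes are compared with each other. Genes of mature bone-forming cells were at or near 0, though other genes of that list were not. Bglap, the osteoblast gene for osteocalcin, did not exceed 0.0997 CPM in any intratibial tumor, Ibsp did not exceed 0.457 CPM, and the osteocyte gene Sost had 0 CPM in all 20. Spp1 (795 to 2509 CPM) and Col1a1 (1097 to 2511 CPM), which tumor cells and fibroblasts also express, were high. Runx2, the transcription factor of the osteoblast lineage, was at 45.1 to 104 CPM, Phex at 10.6 to 30.9 CPM and Alpl at 0.0533 to 2.59 CPM. Skeletal muscle RNA differed widely between the tumors. A score of 15 skeletal muscle genes (their mean log2 CPM) ran from -1.89 to 7.94 at day 14 and from -2.02 to 5.08 at EOS, and it was between 5.47 and 7.94 in the 6 day 14 tumors with cabo and between -1.89 and 6.69 in the 6 without. In bulk tumors, fewer cells of a type and less RNA per cell cannot be told apart, for any gene below.

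The promoters of Ctsk and Acp5 are shown because these genes had the most closely correlated levels of any pair among the 10. Each window holds 250 bases before and 50 after a RefSeq transcription start on GRCm38.p6, written 5′ to 3′ on the gene's strand. Capitals mark the NFAT core (GGAAA, or TTTCC when read on the other strand) and the E-box of the kind that MITF, another osteoclast transcription factor, recognises (TCANGTG, or CACNTGA on the other strand), which do not overlap in these windows. The Acp5 window is the downstream-most of its 3 RefSeq starts and was chosen after the matches were seen, since it holds the most.
Ctsk, chr3:95498960-95499259 (+): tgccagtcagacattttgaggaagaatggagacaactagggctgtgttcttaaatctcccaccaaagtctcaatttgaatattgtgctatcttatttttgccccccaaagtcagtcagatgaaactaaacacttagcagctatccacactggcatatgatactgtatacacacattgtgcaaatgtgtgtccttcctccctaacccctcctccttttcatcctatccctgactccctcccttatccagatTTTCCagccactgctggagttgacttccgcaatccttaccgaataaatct
Acp5, chr9:22130549-22130848 (-): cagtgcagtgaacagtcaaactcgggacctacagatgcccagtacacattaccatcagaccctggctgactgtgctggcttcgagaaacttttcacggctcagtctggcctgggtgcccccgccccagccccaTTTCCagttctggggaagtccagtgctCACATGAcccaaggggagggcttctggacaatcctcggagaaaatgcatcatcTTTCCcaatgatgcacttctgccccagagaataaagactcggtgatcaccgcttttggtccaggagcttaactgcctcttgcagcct
The Ctsk window held 1 NFAT core and the Acp5 window 2 NFAT cores and 1 E-box. The NFAT core occurred in 61.3% of 32851 mouse promoter windows of the same length and the E-box in 14.3%, so neither match sets these promoters apart. The AP-1 motif TGANTCA, present in 7.81% of windows, was not found in any window of the 5 genes searched (Tnfrsf11a, Ctsk, Calcr, Acp5 and Tnfsf11). On GRCm38 with GENCODE M21, the whole Ctsk gene lies at chr3:95499256-95509362 on the plus strand and Acp5 at chr9:22126727-22135711 on the minus strand.

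**Figure D1:**
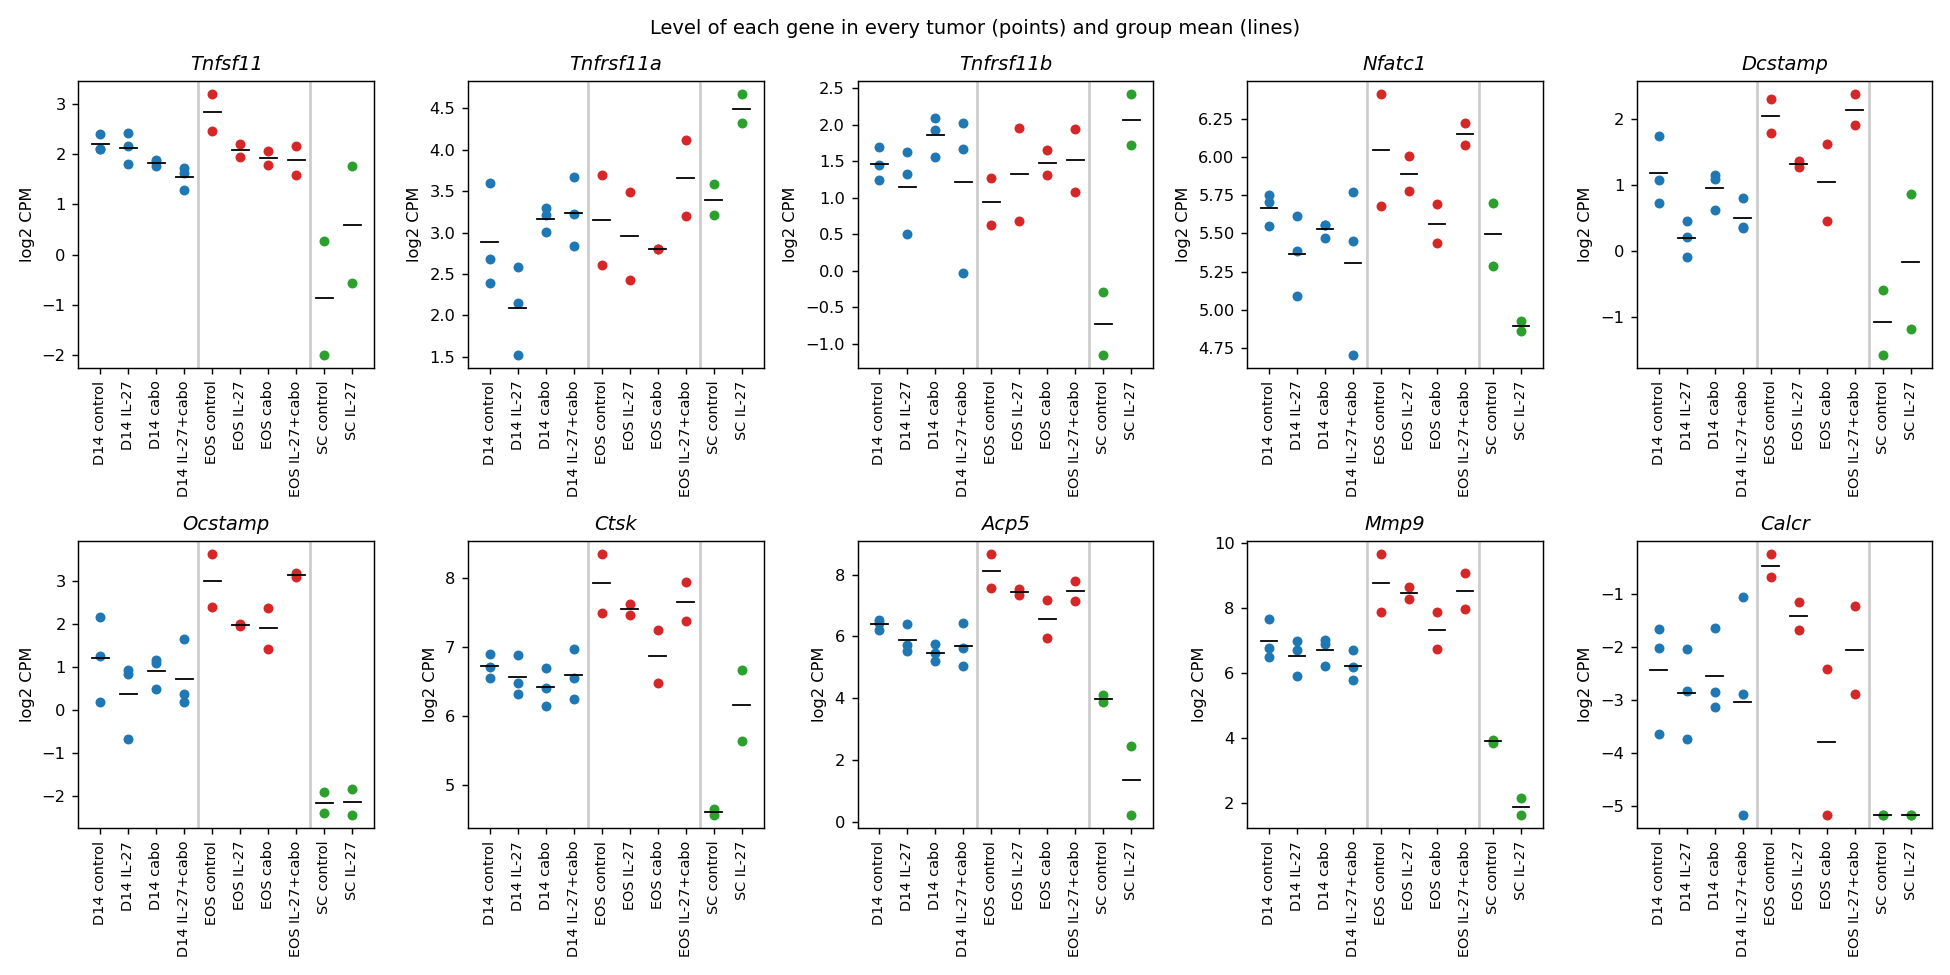
Level of each of the 10 genes (log2 CPM, a separate y axis for each panel) in all 24 tumors by group, with day 14 (D14) tumors in blue, EOS tumors in red and subcutaneous (SC) tumors in green, and a line at each group mean. Acp5, Ctsk, Mmp9, Ocstamp and Nfatc1 were higher in most EOS tumors than in any day 14 tumor, and the lowest points of the Calcr panel are tumors with 0 counts.

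The genes differed greatly in abundance, and the resorption enzymes stood above the rest. Per kilobase of exon, the median over the intratibial tumors was 73.4 CPM per kb for Ctsk (cathepsin K, the protease that cleaves bone collagen), 41.8 for Acp5 (tartrate-resistant acid phosphatase, TRAP, the histological stain for osteoclasts) and 34.6 for Mmp9. Nfatc1 stood at 6.71 CPM per kb, and its highest intratibial tumor, at 11.4, was below the lowest tumor for Mmp9, at 15.5. The ligand and its receptors came next, with 1.78 for Tnfsf11, 1.26 for Tnfrsf11a and 0.997 for Tnfrsf11b. The fusion genes followed, with 0.788 CPM per kb for Dcstamp and 0.685 for Ocstamp, and Calcr, the calcitonin receptor of mature osteoclasts, was last at 0.0478. Apart from the gap between Mmp9 and Nfatc1, the ranges of neighboring genes overlapped. The order of Acp5 and Mmp9, and that from Tnfrsf11a to Ocstamp, depended on the time. At day 14 the median of Mmp9 (29.0 CPM per kb) was above that of Acp5 (26.2). At EOS the medians of Ocstamp (1.42 CPM per kb) and Dcstamp (1.22) were above that of Tnfrsf11b (0.858), as the plot of length-scaled levels shows. Calcr was at the limit of detection, with 0 to 56 counts in an intratibial library. Its 0 counts in mice 20 and 19 allow levels of up to 0.0559 and 0.0412 CPM, taking 3 counts as the limit and covering counting error only.

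**Figure D2:**
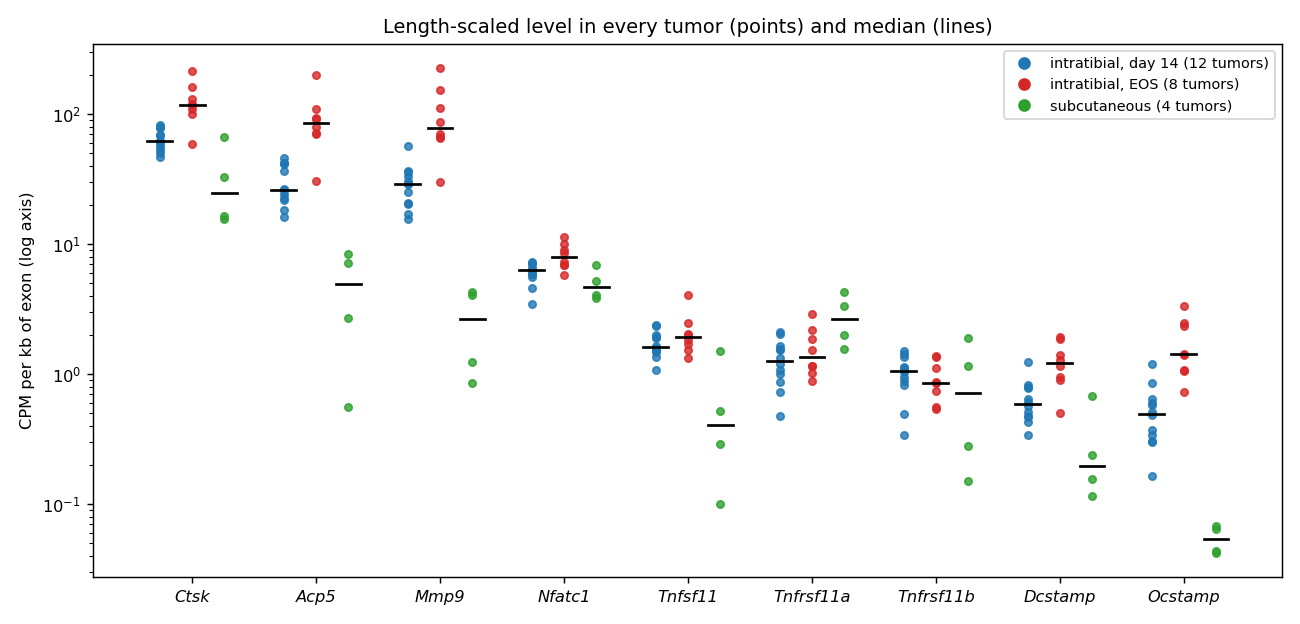
Level of 9 of the genes in CPM per kilobase of exon (log axis) in the intratibial tumors of day 14 (blue, 12 tumors) and EOS (red, 8 tumors) and the subcutaneous tumors (green, 4 tumors), with lines at the medians. Ctsk, Acp5 and Mmp9 have the highest medians at both intratibial times, Dcstamp and Ocstamp have the lowest at day 14, and Tnfrsf11a is the gene with its median highest in the subcutaneous tumors.

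The first question was how these genes stood as intratibial tumors progressed from day 14 to EOS. Over all treatments, 5 of the 10 genes rose and none fell (edgeR quasi-likelihood test with treatment as a term, Benjamini-Hochberg adjusted p under 0.05), where 0.988% of the 21563 tested genes were called and 0.269% were called higher. The genes that rose were the 3 resorption enzymes and both fusion genes. The median log2 change of the 10 genes was 0.88, beside -0.01 for all tested genes. The ligand, both of its receptors, Nfatc1 and Calcr did not pass.

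Among the resorption genes, Acp5 ran from 32.7 to 93.2 CPM at day 14 (median 53.2, 12 tumors) and from 61.9 to 403 CPM at EOS (median 173, 8 tumors). Only the cabo tumor of mouse 19 overlapped the day 14 range, and 7 of 8 EOS tumors were above the highest day 14 tumor. Acp5 was 2.95-fold higher at EOS, a log2 change of 1.56 ± 0.20 (SE; edgeR adjusted p = 0.00241, and 1.02e-09 to 0.0241 over 6 alternative analyses). Ctsk ran from 70.6 to 126 CPM at day 14 (median 93.3) and from 88.8 to 324 CPM at EOS (median 179). Again 7 of 8 EOS tumors exceeded every day 14 tumor, and the exception was mouse 19. The Ctsk change was 1.92-fold, 0.94 ± 0.15 on the log2 scale (SE; edgeR adjusted p = 0.00826, alternatives 5.28e-06 to 0.0957). Mmp9 had the largest change of the 10, 3.36-fold or 1.75 ± 0.28 on the log2 scale (SE; edgeR adjusted p = 0.00826, alternatives 3.09e-07 to 0.28), from a day 14 range of 54.7 to 200 CPM (median 103) to an EOS range of 105 to 798 CPM (median 278). As with the other enzymes, mouse 19 was the lowest EOS tumor and 7 of 8 were above the day 14 range. The highest tumor for all 3 enzymes was the EOS control of mouse 9, with 403 CPM of Acp5, 324 of Ctsk and 798 of Mmp9.

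The fusion genes, whose membrane proteins DC-STAMP and OC-STAMP are needed for precursors to merge into multinucleated osteoclasts, rose from low levels. Ocstamp ran from 0.598 to 4.41 CPM at day 14 (median 1.82) and from 2.65 to 12.3 CPM at EOS (median 5.20). Thus 5 of 8 EOS tumors were above every day 14 tumor and 10 of 12 day 14 tumors were below every EOS tumor. Its change was 3.12-fold, 1.64 ± 0.30 on the log2 scale (SE; edgeR adjusted p = 0.0114, alternatives 7.28e-06 to 0.286). Dcstamp ran from 0.912 to 3.33 CPM at day 14 (median 1.57) and from 1.35 to 5.18 CPM at EOS (median 3.25), with 4 of 8 EOS tumors above the day 14 range. Its change of 1.95-fold, 0.96 ± 0.22 on the log2 scale (SE; edgeR adjusted p = 0.0394, alternatives 0.000989 to 0.755), was the least secure of the 5, since it was lost in 13 of the 20 fits that left out 1 tumor. These were the fits without mouse 3, 7, 8, 22, 24 or 25 of day 14, or without mouse 9, 10, 12, 13, 16, 23 or 28 of EOS, with adjusted p between 0.0508 and 0.0951 and a log2 change between 0.85 and 1.02.

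None of the other 5 genes passed. Nfatc1, the transcription factor upstream of the 5, ran from 26.1 to 54.6 CPM at day 14 (median 46.9) and from 43.2 to 85.1 CPM at EOS (median 59.5), and its log2 change of 0.44 ± 0.13 (SE) had an edgeR adjusted p of 0.118, with 0.0317 to 1 over the alternatives. For Nfatc1, 5 of 8 EOS tumors were above the day 14 range. It passed by DESeq2, at the lowest of these p, where 1066 of all 21563 genes passed. It also passed by edgeR without mouse 20, the shallowest library and the lowest for Nfatc1, with a log2 change of 0.40 and an adjusted p of 0.0434. Tnfrsf11a changed by 0.32 ± 0.23 (SE; adjusted p = 0.551, edgeR), Tnfsf11 by 0.26 ± 0.15 (adjusted p = 0.443), Tnfrsf11b by -0.13 ± 0.25 (adjusted p = 0.838) and Calcr by 0.82 ± 0.68 (adjusted p = 0.594) on the log2 scale. The ranges of these 4 genes at the 2 times overlapped widely, with no more than 2 of 8 EOS tumors above the day 14 range for any of them.

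Skeletal muscle RNA was lower at EOS too, so the comparison was repeated with the muscle score as a covariate. The score averaged 4.00 ± 3.20 (SD, n = 12) at day 14 and 0.77 ± 2.56 (SD, n = 8) at EOS, and all 15 of its genes were lower at an unadjusted p under 0.05, of which Myh1 (a fast myosin heavy chain) was called, at -3.47 on the log2 scale (edgeR adjusted p = 0.0381). With the score in the model, Acp5 alone of the 10 genes was called, at 1.86 on the log2 scale (adjusted p = 0.0241). Ctsk (1.09, adjusted p = 0.0957), Mmp9 (1.66, adjusted p = 0.28), Ocstamp (1.68, adjusted p = 0.286) and Dcstamp (0.86, adjusted p = 0.755) did not pass. Genes called among all tested fell to 14 in that fit.

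**Figure D3:**
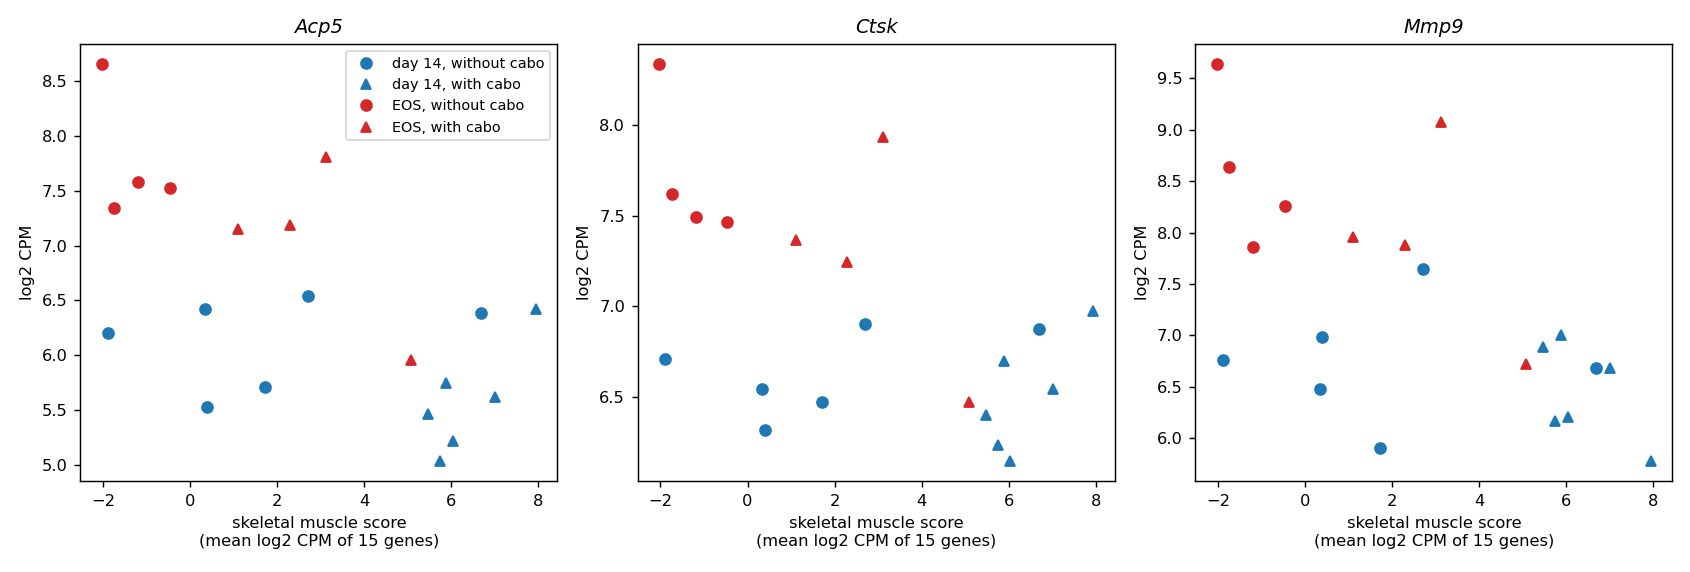
Level of Acp5, Ctsk and Mmp9 (log2 CPM) against the skeletal muscle score (mean log2 CPM of 15 genes) in the 20 intratibial tumors, in blue for day 14 and red for EOS, with circles for tumors without cabo and triangles for tumors with cabo. The EOS tumors without cabo sit at low muscle scores and high levels, the day 14 tumors with cabo at muscle scores of 5.47 and above, and the EOS cabo tumor of mouse 19, at a score of 5.08, lies among the day 14 tumors.

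No gene of macrophages, the lineage from which osteoclasts arise, was called with these genes. The score of 12 macrophage genes was 5.90 ± 0.51 at day 14 (SD, n = 12) and 5.44 ± 0.72 at EOS (SD, n = 8), 0 of the 12 were called, and 7 were lower at an unadjusted p under 0.05 and none higher. T cells, a source of RANKL, were lower at EOS, with 7 of 10 T cell genes called lower, among them Cd3e (-2.34 on the log2 scale, edgeR adjusted p = 0.0101), Cd6 (-2.26) and Cd5 (-1.98). Among 12 genes of neutrophils and marrow granules, another source of MMP9, 11 were tested and none was higher, and Ltf (lactoferrin) was lower, at -3.16 on the log2 scale (adjusted p = 0.0289). None of the 10 endothelial genes was called, though 7 were higher at an unadjusted p under 0.05. Of 8 dendritic cell genes, Ccr7 was called lower (-1.18, adjusted p = 0.0186), and of 10 fibroblast and 8 epithelial genes none was called.

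Few other genes of the osteoclast program rose with the 5. Of 25 genes of RANK signaling and the precursor, 1 was called higher and none lower, which was Oscar, the costimulatory receptor of osteoclasts, at 1.40 ± 0.27 on the log2 scale (SE; edgeR adjusted p = 0.0168), from 1.23 to 3.17 CPM on average. Of 18 genes for acid secretion and matrix resorption, 1 was called higher and none lower, which was Atp6v0d2, the osteoclast subunit of the vacuolar proton pump, at 1.04 ± 0.23 (SE; edgeR adjusted p = 0.0381), from 12.2 to 26.8 CPM on average. The median log2 changes of these lists were -0.07 and 0.05, close to that of all tested genes. None of 10 repressors of osteoclast formation was called (median -0.24), none of the 13 tested inducers of RANKL (median -0.65), and none of the 8 tested osteoblast and osteocyte genes (median -0.20).

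**Figure D4:**
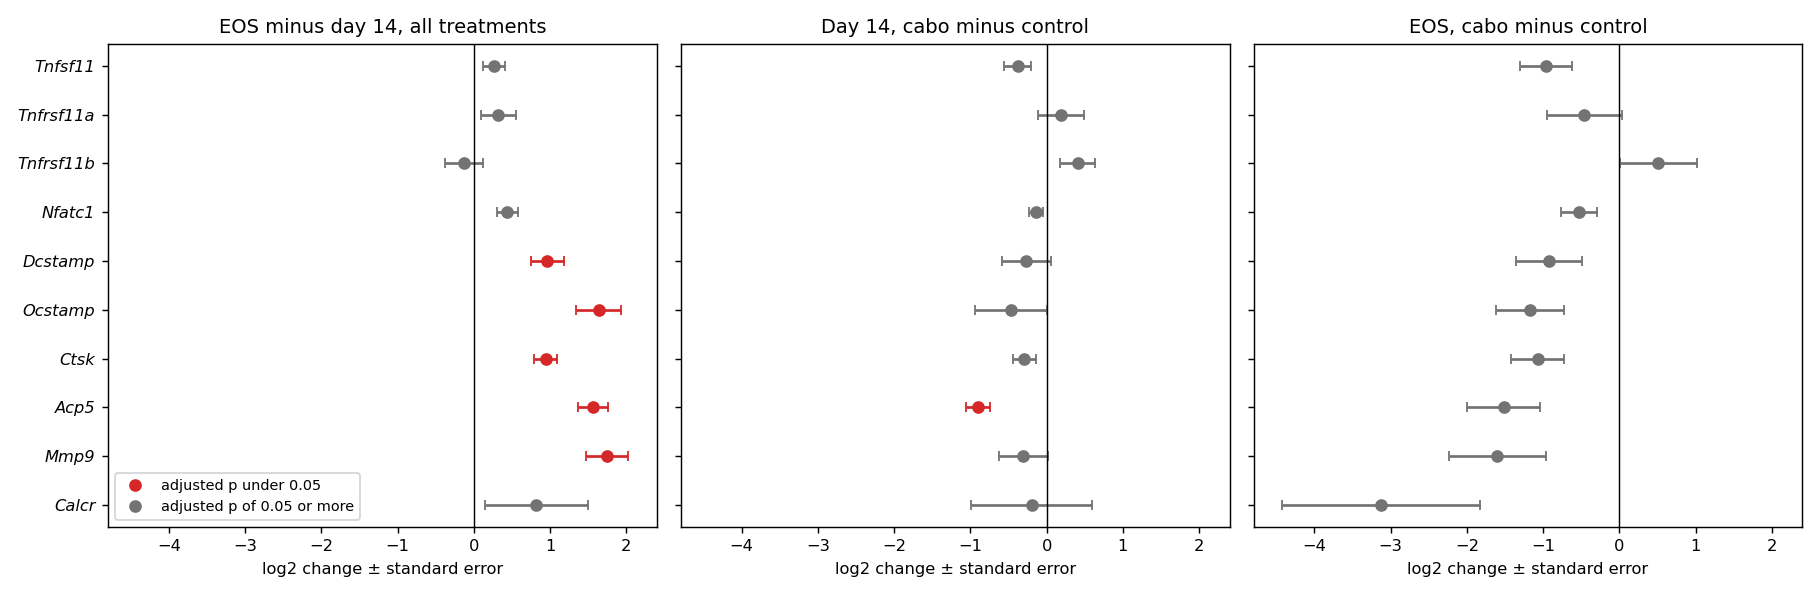
Log2 change ± SE of each of the 10 genes in 3 comparisons, EOS minus day 14 over all treatments, day 14 cabo minus control, and EOS cabo minus control, with genes of adjusted p under 0.05 in red and the others in grey. The resorption and fusion genes lie right of 0 in the first panel, Acp5 at -0.90 is the called gene of the second, and in the third 9 of 10 genes lie left of 0 with none called.

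Within each treatment the 5 genes were higher at EOS on average, and least so after cabo. For Acp5 the mean log2 level differed by 1.73 in control tumors, 1.56 with IL-27, 1.09 with cabo and 1.79 with IL-27+cabo. For Mmp9 the differences were 1.79, 1.92, 0.60 and 2.31 in the same order, and for Ctsk 1.20, 0.99, 0.45 and 1.07. Ocstamp differed by 1.81, 1.61, 0.99 and 2.42, and Dcstamp by 0.86, 1.13, 0.08 and 1.63. The cabo value was thus the lowest for each of the 5 genes, from 2 EOS tumors, of which mouse 19 was the lower for each of them. The test of the difference itself, whether the change from control to cabo differed between EOS and day 14, called 0 of the 10 genes with edgeR, with 0 at an unadjusted p under 0.05 and 0 by DESeq2, where 0.0788% of all genes were called and 4.11% passed unadjusted.

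In control tumors alone (3 of day 14, 2 of EOS), 0 of 10 genes were called by edgeR, where 0.104% of the 19292 tested genes were. At an unadjusted p under 0.05, 6 were higher, which were Acp5, Ctsk, Mmp9, Ocstamp, Calcr and Tnfsf11, beside 5.90% of all genes. The groups did not overlap for 7 of 10 genes, all higher at EOS, beside 15.5% of all genes. DESeq2 called 2, Acp5 and Ctsk, where it called 872 of all 19292 genes. Acp5 was at 73.8, 93.2 and 85.8 CPM in day 14 mice 3, 5 and 7 and at 403 and 191 CPM in EOS mice 9 and 13, a log2 change of 1.82 with an edgeR adjusted p of 0.104. With 1 tumor left out, this log2 change ran from 1.19 to 2.27.

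The next question was whether cabo, IL-27 or both changed these genes at day 14. The 3 comparisons share the control tumors. With cabo, 1 of 10 genes passed, Acp5, which fell, where 1.89% of the 18627 tested genes were called and 0.693% were called lower. Acp5 was at 73.8, 93.2 and 85.8 CPM in control tumors and at 44.2, 37.1 and 53.8 CPM in the cabo tumors of mice 21, 25 and 27. Each cabo tumor was below each control tumor, and the level was 1.87-fold lower, -0.90 ± 0.15 on the log2 scale (SE; edgeR adjusted p = 0.0327, and 4.8e-06 to 0.796 over 7 alternatives). The groups did not overlap for 2 of 10 genes, both lower with cabo, beside 13.7% of all genes. The other was Tnfsf11, at 4.25, 4.29 and 5.23 CPM in control and 3.54, 3.36 and 3.66 CPM in cabo tumors (-0.38 ± 0.18 on the log2 scale, edgeR adjusted p = 0.298).

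The Acp5 call was fragile. It was lost in 5 of the 6 fits that left out 1 tumor, without mouse 5, 7, 21, 25 or 27, with adjusted p from 0.0504 to 0.135 and log2 changes from -1.05 to -0.78, and it also passed in neither the fit without a filter nor the fit of all day 14 groups together. Skeletal muscle moved with the treatment, at scores of -1.89, 2.70 and 0.34 in the control tumors and 5.47, 6.04 and 5.89 in the cabo tumors. All 15 muscle genes were higher at an unadjusted p under 0.05, and 4 were called, of which Myh4 (6.07 on the log2 scale, adjusted p = 0.019), Ckm (5.14) and Tnni2 (4.11) are examples. With the score as a covariate Acp5 was not called, at -1.27 on the log2 scale (adjusted p = 0.496), and 0 of the 18627 tested genes were. The scores of control and cabo tumors do not overlap, so this fit cannot separate muscle RNA from cabo.

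Other genes of the system changed with cabo in both directions. None of 25 RANK signaling genes was called. Of the 18 resorption genes, Ckb, the brain-type creatine kinase that supplies energy to resorbing osteoclasts, fell from 34.6 ± 5.06 to 20.1 ± 1.32 CPM (SD, n = 3 each; edgeR adjusted p = 0.0329). Of 13 tested inducers of RANKL, 2 rose, Il1b (interleukin-1 beta) from 5.67 ± 2.12 to 16 ± 2.26 CPM (SD, n = 3 each; edgeR adjusted p = 0.0416) and its receptor Il1r1 from 47.9 ± 3.47 to 66.7 ± 1.26 CPM (edgeR adjusted p = 0.0411). Of 10 repressors, Lilrb4a, an inhibitory receptor of myeloid cells, rose from 34.8 ± 4.69 to 57.9 ± 5.82 CPM (SD, n = 3 each; edgeR adjusted p = 0.0358). Among marker lists, 6 of 10 T cell genes were called lower (Cd3e by -1.97, Lck by -1.35 and Zap70 by -2.21 on the log2 scale), 3 of 10 endothelial genes were lower (Emcn by -2.70, Tie1 by -1.81 and Kdr by -1.56) and 2 of 10 fibroblast genes were higher (Col3a1 by 0.64 and Col6a3 by 0.60). Of 8 dendritic cell genes, Ccr7 was higher (1.26) and Fscn1 lower (-0.43) on the log2 scale. Of 12 macrophage genes none was called. The part of these cells in the Acp5 change was not tested.

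Across both plasmids, that is cabo and IL-27+cabo against control and IL-27, 0 of 10 genes were called by edgeR, where 0.895% of the 19899 tested genes were. At an unadjusted p under 0.05 there were 2 of 10, Tnfrsf11a (0.66 on the log2 scale) and Tnfsf11 (-0.49), beside 12.5% of all genes. DESeq2 called Tnfsf11 alone of the 10 (-0.48, adjusted p = 0.0323), where it called 1045 of all 19899 genes. Tnfsf11 was at 2.42, 3.29 and 3.04 CPM in the IL-27+cabo tumors of mice 20, 22 and 24 and at 4.46, 5.33 and 3.45 CPM in the IL-27 tumors of mice 4, 6 and 8, so that with IL-27 too the lower values were those with cabo. Acp5 was called without mouse 20 (-0.77, edgeR adjusted p = 0.0329), whose 85.9 CPM stood above the 49.0 and 32.7 CPM of mice 22 and 24. In this comparison 2 repressors rose, Pirb, a paired inhibitory receptor, by 1.19 (adjusted p = 0.00468) and Lilrb4a by 0.73 (adjusted p = 0.00933) on the log2 scale. Of the marker lists, 13 of 15 muscle genes were higher at an unadjusted p under 0.05, 4 of 10 endothelial genes were called lower, 1 of 10 T cell genes was called lower with 6 lower at an unadjusted p under 0.05 (median -1.06 on the log2 scale), 1 of 8 dendritic cell genes, Ccr7, was called higher, and 12 of 12 macrophage genes had positive log2 changes, 4 of them at an unadjusted p under 0.05, with a median of 0.61. With the muscle score as a covariate 0 of the 10 genes and 13 of all 19899 were called, and Tnfsf11 was at -0.27 on the log2 scale.

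IL-27 and the combination did not give a call among the 10 genes at day 14. With IL-27, edgeR called 0 of 10 (and 0% of the 18519 tested genes) and DESeq2 0, and 1 passed at an unadjusted p under 0.05, beside 2.76% of all genes. That gene was Dcstamp, at 1.63, 3.33 and 2.09 CPM in control tumors and 1.35, 0.912 and 1.13 CPM with IL-27. With IL-27+cabo, edgeR called 0 of 10, where 0.0640% of the 18750 tested genes were called, with 0 of 10 at an unadjusted p under 0.05, beside 6.20% of all genes, and 0 by DESeq2. Cd3e of the T cell list was called lower there (-2.67 on the log2 scale, edgeR adjusted p = 0.0406). The interaction of IL-27 with cabo, which asks whether the combination differs from the sum of its parts, called 0 of 10 genes and 0% of all with edgeR, with 0 of 10 at an unadjusted p under 0.05, beside 1.88% of all genes, and 0 by DESeq2.

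At EOS, after cabo dosing had ended, the 3 comparisons again share the control tumors, of mice 9 and 13. The paper reports longer survival with cabo and with IL-27+cabo than in controls, so these tumors may have been harvested later. For both groups, treatment and time of harvest cannot be told apart. With cabo, edgeR called 0 of 10 genes and 0% of the 20026 tested. DESeq2 called Acp5 alone of the 10 (adjusted p = 0.0266), where it called 270 of all genes. At an unadjusted p under 0.05, 6 of 10 were lower, beside 4.36% of all genes, which were Acp5 (-1.52 on the log2 scale), Ctsk (-1.07), Tnfsf11 (-0.96), Ocstamp (-1.17), Mmp9 (-1.60) and Calcr (-3.13). These values rested on single tumors. Without mouse 9 the log2 changes were -0.87 for Acp5, -0.58 for Ctsk, -0.54 for Tnfsf11, -0.42 for Ocstamp and -0.45 for Mmp9, and without mouse 23 they were -2.27 for Acp5, -1.51 for Ctsk, -1.73 for Ocstamp and -2.29 for Mmp9, with the lone tumor assumed to vary like the other groups. The value for Calcr depends on the prior count, since mouse 19 had 0 counts, and without that tumor it was -2.13. For 6 of 10 genes both cabo tumors were below both controls (Tnfsf11, Ctsk, Acp5, Calcr, Dcstamp and Ocstamp), beside 21.1% of all genes. Tnfrsf11b was higher in both cabo tumors than in both controls, at 0.51 on the log2 scale. Acp5 was at 403 and 191 CPM in control tumors and at 61.9 and 146 CPM in the cabo tumors of mice 19 and 23. Ctsk was at 324 and 180 CPM in control and 88.8 and 152 CPM in cabo tumors, and Mmp9 at 798 and 232 CPM in control and 105 and 235 CPM in cabo tumors. The highest control, mouse 9, and the lowest cabo tumor, mouse 19, were the same for each enzyme. Muscle scores were -2.02 and -1.18 in these controls and 5.08 and 2.29 in the cabo tumors, in the same order of mice, and all 15 muscle genes were higher with cabo at an unadjusted p under 0.05 with none called, so that muscle RNA and cabo cannot be told apart here. Other marker scores did not overlap either. In the same order, the neutrophil and marrow granule score was -2.21 and -3.45 in controls and -4.30 and -4.53 with cabo, the endothelial score 4.14 and 3.64 against 4.65 and 4.38, the macrophage score 5.37 and 4.71 against 5.82 and 5.72, the T cell score 0.0858 and -0.50 against -0.69 and -2.02, and the osteoblast and osteocyte score 0.64 and 0.57 against 1.13 and 1.24. The dendritic cell score was 0.956 and 1.00 in controls and 1.84 and 1.33 with cabo. The part of these cells in these differences was not tested. Genes of the neutrophil and marrow granule list were near 0 at EOS, with medians of 0.309 CPM at most. Bglap, Ibsp, Sost and Mepe of the osteoblast and osteocyte list had EOS medians of 0 CPM.

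With IL-27 at EOS, edgeR called 0 of 10 genes and 0% of all, DESeq2 called 0, and 2 were lower at an unadjusted p under 0.05, Ocstamp (-1.18 on the log2 scale) and Tnfsf11 (-0.81), beside 3.25% of all genes. Groups did not overlap for 5 of 10 genes, all lower with IL-27 (Tnfsf11, Acp5, Calcr, Dcstamp and Ocstamp), beside 15.9% of all genes. Ocstamp was at 12.3 and 5.24 CPM in control tumors and 3.96 and 3.86 CPM with IL-27. Both values rested on control mouse 9, without which Ocstamp was at -0.43 and Tnfsf11 at -0.39, and without mouse 13 they were at -1.67 and -1.14 on the log2 scale. The neutrophil and marrow granule score was -2.21 and -3.45 in the controls and -4.03 and -3.72 in the IL-27 tumors of mice 10 and 12, and the osteoblast and osteocyte score 0.64 and 0.57 against 1.13 and 0.90, without overlap, and their part was not tested. With IL-27+cabo, edgeR called 0 of 10 and 0% of all, DESeq2 called 0, and Tnfsf11 alone was lower at an unadjusted p under 0.05 (-0.97, and -0.55 without mouse 9), beside 14.2% of all genes. Muscle scores were 3.11 and 1.11 in the combination tumors of mice 16 and 28, above both controls, and the macrophage, endothelial and dendritic cell scores were above both controls too and the neutrophil score below them, whose part was not tested. The resorption and fusion genes of the combination lay in the control range or near it, with Acp5 at 224 and 142 CPM, Ctsk at 245 and 165 CPM, Mmp9 at 539 and 248 CPM, Ocstamp at 9.08 and 8.56 CPM and Dcstamp at 5.18 and 3.73 CPM in mice 16 and 28.

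The ligand and its decoy were both of low abundance at EOS, where the ligand was highest in the control tumors. Tnfsf11 was at 9.13 and 5.49 CPM in EOS control tumors, 4.57 and 3.83 with IL-27, 3.42 and 4.13 with cabo and 4.45 and 2.97 with IL-27+cabo. At day 14 the control tumors were lower, at 4.25 to 5.23 CPM. Its decoy, Tnfrsf11b, was at 2.39 and 1.51 CPM in EOS controls, 1.58 and 3.86 with IL-27, 3.12 and 2.45 with cabo and 2.08 and 3.83 with IL-27+cabo, and the control tumors overlapped those with IL-27 and with IL-27+cabo but not those with cabo.

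The balance of ligand and decoy was described by the ratio of Tnfsf11 to Tnfrsf11b in CPM per kb, with no test. In day 14 control tumors the ratio was 1.98, 2.31 and 2.06, and with IL-27 it was 2.26, 2.20 and 3.13. With cabo it was 1.18, 1.45 and 1.09, below each control. In the IL-27+cabo tumors it was 1.03 and 1.21 in mice 22 and 24 but 3.21 in mouse 20, whose Tnfrsf11b was the lowest of the intratibial tumors at 0.950 CPM. The EOS controls had the highest ratios of all tumors, 4.82 and 4.58, and the treated EOS tumors ran from 0.979 to 3.64. By their mean the EOS controls were first among the intratibial groups, while the last place turned on mouse 20, since mice 22 and 24 had ratios within or below the range of the day 14 cabo tumors. The ranges of the EOS IL-27, cabo and combination groups overlapped. The mRNA of both genes was low, and an mRNA ratio does not measure the secreted proteins.

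**Figure D5:**
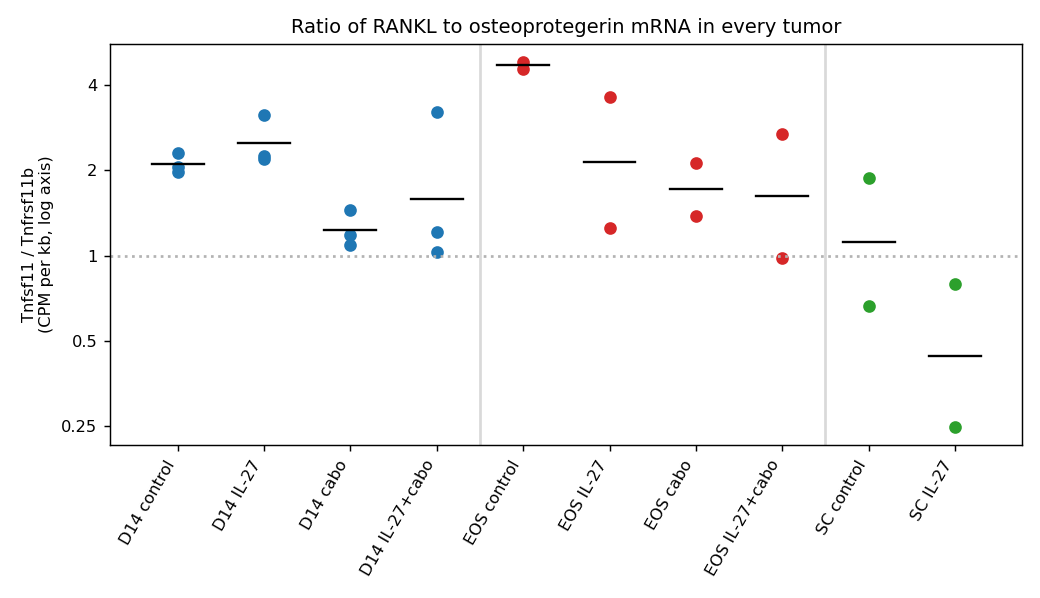
Ratio of Tnfsf11 (RANKL) to Tnfrsf11b (OPG) mRNA in CPM per kilobase (log axis) in each of the 24 tumors by group, with a line at the geometric mean and a dotted line at a ratio of 1. The 2 EOS control tumors are highest, at 4.82 and 4.58, and the lowest tumor is a subcutaneous tumor with IL-27, at 0.249.

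In the subcutaneous tumors with IL-27, 2 of the 9 tested genes rose and 1 fell, where 20% of the 19360 tested genes were called. Tnfrsf11b rose from 0.421 and 0.785 CPM in control tumors 1 and 2 to 5.33 and 3.26 CPM in IL-27 tumors 1 and 2, 7.25-fold or 2.86 ± 0.63 on the log2 scale (SE; edgeR adjusted p = 0.0212, alternatives 9.54e-05 to 0.0902). Ctsk rose from 23.5 and 25.03 to 49.5 and 101 CPM, 3.11-fold or 1.64 ± 0.40 (SE; edgeR adjusted p = 0.0296, alternatives 0.000519 to 0.0556). Mmp9 fell from 14.3 and 15.1 to 4.36 and 3.04 CPM, 3.91-fold or -1.97 ± 0.43 (SE; edgeR adjusted p = 0.0198, alternatives 0.000152 to 0.699). Thus 2 enzymes of the resorption group, Ctsk and Mmp9, went opposite ways, though Mmp9 changed by only -0.37 on the log2 scale after correction for GC content and length.

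Acp5 followed Mmp9 in direction, at 17.2 and 14.6 CPM in control and 1.14 and 5.52 CPM in IL-27 tumors. Its log2 change of -2.27 ± 0.70 (SE) had an edgeR adjusted p of 0.0649, with 0.0052 to 0.712 over the alternatives. After correction for GC content and length its log2 change was -0.51. Tnfrsf11a was higher in both IL-27 tumors, at 19.96 and 25.5 CPM against 9.25 and 11.95 CPM in control (1.11 ± 0.37 on the log2 scale, edgeR adjusted p = 0.0784, alternatives 0.0112 to 0.186). Nfatc1 was lower in both, at 30.3 and 29.0 against 39.0 and 52.0 CPM (-0.60 on the log2 scale, adjusted p = 0.237), but this direction turned to 0.52 after correction for GC content and length. Tnfsf11 (1.57, adjusted p = 0.333), Dcstamp (1.20, adjusted p = 0.38) and Ocstamp (0.06, adjusted p = 0.976) overlapped between the groups. With 1 tumor left out, their log2 changes ran from -0.16 to 3.15, from -0.13 to 1.87 and from -0.39 to 0.39, so each sign rested on single tumors.

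In the fit with each library corrected for GC content and gene length, none of the 3 genes passed. Tnfrsf11b was then at 1.97 (adjusted p = 0.0892), Ctsk at 1.39 (adjusted p = 0.0548) and Mmp9 at -0.37 (adjusted p = 0.685) on the log2 scale. Leaving out a tumor leaves 1 in its group, which is then assumed to vary like the pair of the other group, so these fits say little about stability. Without control tumor 1 none of the 3 passed, with Tnfrsf11b at 2.47 (adjusted p = 0.105), Ctsk at 1.60 (adjusted p = 0.142) and Mmp9 at -2.01 (adjusted p = 0.0646). Without control tumor 2, Ctsk was at 1.66 (adjusted p = 0.0813), and without IL-27 tumor 2 Ctsk was at 1.08 (adjusted p = 0.279), Mmp9 at -1.70 (adjusted p = 0.106) and Acp5 at -3.74 (adjusted p = 0.000872). Muscle scores were -0.73 and -2.80 in the control tumors and 5.53 and 4.26 in the IL-27 tumors, with 14 of 15 muscle genes called higher, and 5 of 8 tested neutrophil and marrow granule genes were called higher. In the same order, the epithelial tumor score was 2.13 and 1.51 against -0.19 and -0.10. The macrophage score was 6.84 and 6.68 against 5.47 and 6.29, and the T cell score -0.68 and -0.26 against 0.21 and 0.22. The treatment and these tissues cannot be told apart.

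The wider program in these tumors was mixed as well. Over all 19360 tested genes 3198 were called lower and 682 higher, and once libraries were corrected for GC content and length 1063 were lower and 461 higher. The counts by list that follow are from the fit without that correction. Of 25 RANK signaling and precursor genes, 10 were called lower and none higher, led by Rela (-4.12 on the log2 scale, edgeR adjusted p = 0.00146), Src (-4.42) and Nfkb2 (-3.32). Of 18 resorption genes, 6 were lower, led by the anion exchanger Slc4a2 (-3.94, adjusted p = 0.00146), with the proton pump subunit Tcirg1 (-2.60) and the lysosomal adaptor Plekhm1 (-2.37) after it, and Ostm1, a partner of the chloride channel of the ruffled border, was higher (1.09, adjusted p = 0.0497). Of 13 tested inducers of RANKL, 4 were higher, among them Il6 (2.85, adjusted p = 0.0105), Il1b (2.22) and Ptgs2 (2.03). Of 10 repressors, Lilrb4a (1.75, adjusted p = 0.013) and Pirb (1.91, adjusted p = 0.0316) were higher.

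The intratibial and subcutaneous tumors were separate experiments with different library prefixes, harvest times and sublines, so that site and experiment cannot be told apart, and their levels are described without a test. These levels are not corrected for GC content or gene length. Within the subcutaneous tumors that correction moved the IL-27 changes of Mmp9, Acp5 and Nfatc1. The median over the 20 intratibial tumors was 13.1 times that over the 4 subcutaneous tumors for Mmp9, 12.7 times for Ocstamp and 8.42 times for Acp5, and every intratibial tumor was above every subcutaneous tumor for these 3 genes. For Tnfsf11 the ratio was 4.38, for Dcstamp 3.98 and for Ctsk 2.98, with 16, 11 and 12 of 20 intratibial tumors above the highest subcutaneous one. Calcr was above the subcutaneous tumors in 18 of 20, where 0 counts allow between 0.0357 and 0.0399 CPM. The subcutaneous median pools control and IL-27 tumors, which matters for the genes that differed between them. For Mmp9 the intratibial median of 122.5 CPM stood beside 14.7 CPM in subcutaneous control and 3.70 CPM in subcutaneous IL-27 tumors, and for Acp5 84.8 CPM stood beside 15.9 and 3.33 CPM. For Ocstamp 2.50 CPM stood beside 0.198 and 0.202 CPM. For Ctsk the intratibial median of 111 CPM stood beside 24.3 CPM in subcutaneous control and 75.5 CPM in subcutaneous IL-27 tumors. For Tnfrsf11b, at 2.81 CPM in intratibial tumors, the subcutaneous medians of 0.603 CPM with control and 4.30 CPM with IL-27 lay on either side. Nfatc1 was at 50.1 CPM in intratibial, 45.5 CPM in subcutaneous control and 29.7 CPM in subcutaneous IL-27 tumors. Tnfrsf11a had a median of 7.55 CPM in intratibial tumors, 10.6 CPM in subcutaneous control and 22.7 CPM in subcutaneous IL-27 tumors, and the control tumors, at 9.25 and 11.95 CPM, lay within the intratibial range of 2.84 to 17.4 CPM.

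Over the 20 intratibial tumors the 10 genes did not vary as one group. As a description, with all tumors sharing treatments and times, Pearson's r of log2 CPM between Ctsk and Acp5 was 0.973, and 0.947 for the deviations from group means. Of all 21562 other genes tested, those most like Acp5 were Ctsk, Slc9b2 (a sodium-proton exchanger abundant in osteoclasts, 0.923) and Atp6v0d2 (0.874). Mmp9 was most like Slc37a2 (0.915), Ocstamp (0.912) and Slc9b2 (0.904), Ocstamp most like Oscar (0.914), Mmp9 and Grk3 (0.910), and Dcstamp most like Ocstamp (0.901), Slc37a2 (0.891) and Mmp9 (0.881). For Ctsk the next after Acp5 were Slc9b2 (0.903) and Mmp9 (0.894). For the deviations from group means these r were lower, at 0.555 for Acp5 and Slc9b2, 0.580 for Ctsk and Slc9b2, 0.651 for Ctsk and Mmp9, 0.848 for Mmp9 and Ocstamp and 0.635 for Dcstamp and Slc37a2. Over all tumors each of the 3 enzymes and both fusion genes had at least 1 other of these 5 among its 3 most similar genes.

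Nfatc1 was most like Tm4sf19 (0.890), Slc37a2 (0.868) and Phlpp1 (0.867). The receptor gene Tnfrsf11a had other neighbors, Nfam1 (0.906), the kinase Btk (0.881) and the M-CSF receptor Csf1r (0.874), which myeloid cells express. Tnfsf11 was most like Gabarapl1 (0.872) and Dnm1l (0.866), and Tnfrsf11b most like Flii (0.865), Atp10a (0.864) and Abcb1b (0.858). Calcr, with counts near 0, had the weakest neighbors, Gm17597 (0.749), Tfrc (0.747) and Gm16581 (0.745). Between ligand and receptor r was -0.177, between ligand and decoy -0.026 (0.36 for the deviations from group means), and between Tnfrsf11b and Ctsk -0.34.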

How the data were processed

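The RNA was prepared as poly(A) stranded libraries by the authors, read from both ends, trimmed with cutadapt, mapped with HISAT2 and assembled with StringTie, and expression was estimated with StringTie and ballgown. The values deposited are raw counts for each Ensembl gene, as whole numbers and not normalized. The counting program and annotation are not given in the sources used here, and the submitters' processing notes name GRCh38, a human build, although the genes are mouse. In each library 30.4% to 35.5% of low counts (1 to 20) were multiples of 4, so dividing by 4 was tried. Symbols, lengths and coordinates are from GENCODE M21 on GRCm38, which held 55141 identifiers and lacked 260. Acp5 overlaps 6530413G14Rik on the opposite strand, which had 0 to 11 counts.

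Tests were run with edgeR 4.0.16 in R 4.3.3 (filterByExpr, TMM normalization, quasi-likelihood F test, two-sided, Benjamini-Hochberg adjustment over all tested genes), with a prior count of 2 for log2 CPM. Each fit held the groups compared, except that the EOS groups shared a fit and the interaction, both-plasmid and time comparisons used all tumors they concern. DESeq2 1.42.0 was an alternative. The code for these tests was checked on simulated counts. The 10 genes, lists, tests and alternatives were chosen with earlier results of these data known. From other lists, up to 3 genes a direction with the smallest p under the adjusted threshold were named. For each of the 10 genes, the 3 genes with the highest Pearson r over the intratibial tumors were also taken, and 1 of these is not reported here.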

Additional observations from a re-analysis of the deposited data

How the results depend on the processing

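The number of the 10 genes called (adjusted p under 0.05) was recomputed under each alternative. DESeq2 called 2 for EOS against day 14 in control tumors, 1 for EOS cabo, 1 for day 14 cabo over both plasmids and 5 for subcutaneous IL-27 (adding Tnfrsf11a and Acp5), where edgeR called 0, 0, 0 and 3, and 6 for EOS against day 14 over all treatments (adding Nfatc1), where edgeR called 5. For day 14 cabo, 0 were called without a filter, 0 with the muscle score as a covariate and 0 with all day 14 groups in one fit, in place of 1. Without a filter Dcstamp was also lost for EOS against day 14 over all treatments (adjusted p = 0.0586), leaving 4, and Ctsk for subcutaneous IL-27 (adjusted p = 0.0556), leaving 2, while counts divided by 4 added Acp5 there (adjusted p = 0.0392). For EOS against day 14 over all treatments the muscle score left 1 of 5. For subcutaneous IL-27 the GC content and length correction left 0. Leaving out 1 tumor gave 0 to 1 genes for day 14 cabo, 0 to 1 for cabo over both plasmids, 4 to 6 for EOS against day 14 over all treatments and 0 to 3 for subcutaneous IL-27, and 0 in every other comparison. The cause of these changes was not tested. The replicate numbers of the subcutaneous tumors, which only 2 pairs share, did not pair them (r = 0.0316 between deviations from the group means), and a replicate block called 4 genes, or 1 (Ctsk) with the GC content and length correction. No result past the threshold reversed its direction. Over all genes, day 14 cabo gave 352 calls by edgeR, 1485 by DESeq2, 101 without a filter, 26 with all day 14 groups and 0 with the muscle score, and cabo over both plasmids gave 178, beside 1045 by DESeq2, 114 without a filter, 289 with counts divided by 4, 299 with the GC correction and 13 with the muscle score. EOS against day 14 over all treatments gave 213, beside 1066 by DESeq2, 371 with counts divided by 4 and 14 with the muscle score, and in control tumors 20, beside 872 by DESeq2, 0 without a filter and 0 with all intratibial groups. Day 14 IL-27+cabo gave 12, beside 484 by DESeq2, 34 with the GC correction, 30 with all day 14 groups and 0 with the muscle score. The difference in the cabo change gave 17, beside 86 by DESeq2, and the interaction and day 14 IL-27 gave 0, beside 5 and 2 by DESeq2. EOS IL-27, cabo and IL-27+cabo gave 0 by edgeR and 23, 270 and 928 by DESeq2. Subcutaneous IL-27 gave 3880 (682 higher, 3198 lower), 6120 by DESeq2 (2245 higher, 3875 lower), 1524 with the GC correction (461 higher, 1063 lower) and 2303 with the block and that correction. With 2 tumors a group at EOS and under the skin, and fewer than 60 counts of Calcr in a library, small differences were not detectable.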
